A study of Mus musculus with 71 samples.

Results

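The step from DN2a to DN2b thymocytes was described by RNA-seq of 3 wild-type DN2a and 3 wild-type DN2b samples, for all genes that exceeded 1 TPM in any of these 6 libraries, which were 12264 of the 24420 genes in the deposited tables. TPM is a level of transcripts corrected for their length and scaled to the same total in every library. The 6 libraries are part of 71 samples, of which 15 are wild-type lymphoid libraries with the same processing: 2 of LMPP (lymphoid-primed progenitors of the bone marrow), 3 each of DN1, DN2a and DN2b, and 2 each of DN3a and DN3b. The study sequenced these stages to see where genes regulated by the B cell factor Pax5 are expressed among uncommitted and T-lymphoid progenitors.

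DN2a and DN2b cells are CD4 and CD8 negative progenitors of the thymus. All 6 samples were sorted by flow cytometry directly from the thymus of C57BL/6 mice without a transgene or treatment. The labels give neither the age of these mice nor how many mice went into a sample. DN2a cells were gated as Lin− CD25+ CD44+ with high Kit, and DN2b cells in the same way with intermediate Kit, where Lin stands for CD4, CD8a, CD11b, CD11c, TCRβ, TCRγδ, NK1.1, Gr1 and Ter-119. The gate thus differs only in the level of Kit. *Kit*, *Il2ra* (CD25) and *Cd44* are genes of the sort, and their levels are a check of it and no finding. Among the 3 samples of each stage, 2 carry the same replicate number in the labels, and the second of them is called 1b for DN2a and 2b for DN2b. Nothing says that samples of a stage came from separate mice, so the p values measure the spread between these samples. The fit did not pair samples across stages, although those with consecutive experiment numbers varied together in part, as given with the alternatives.

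Thymocytes at these stages still respond to Notch signals from the thymic stroma while they lose the ability to form myeloid, dendritic and innate lymphoid cells. The zinc finger factor Bcl11b is switched on during this interval and is needed for commitment to the T lineage, whereas the receptor tyrosine kinase Kit, which binds stem cell factor, is gradually lost. DN2b cells later become DN3a cells, which rearrange the T cell receptor β gene and display its product with the pre-T cell receptor α chain and the CD3 proteins.

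In short, DN2b samples had higher levels of the CD3 genes and of 11 of 28 tested genes of T cell receptor signalling. They had lower levels of 14 of 21 transcription factors of stem and progenitor cells and of 5 of 7 granulocyte and macrophage markers. These shares were 39.3%, 66.7% and 71.4%, against 8.65% of all genes. The counts were 7, 10 and 4 without DN2a replicate 1, and 7, 12 and 4 without DN2b replicate 2. With limma and Benjamini-Hochberg adjustment, 1061 of 12264 genes (8.65%) had an adjusted p under 0.05, of which 532 (4.34%) were higher and 529 (4.31%) lower in DN2b samples. These are referred to as called. The study's further thresholds, more than a 3-fold difference and an average over 5 TPM in either stage, were also met by 292 genes (2.38%), of which 142 (1.16%) were higher and 150 (1.22%) lower. The 3 DN2b values did not overlap the 3 DN2a values for any of the 1061 called genes, compared with 3140 of all 12264 genes. All changes are differences on the scale of log2(TPM + 0.1), on which the change of genes with low expression is understated. The number of called genes was 499 without DN2a replicate 1, 674 without DN2a replicate 1b, 639 without DN2b replicate 1, 565 without DN2b replicate 2 and 704 without DN2b replicate 2b. Without DN2a replicate 2 it was 1402, of which 900 were higher and 502 lower. Counts of list members with a library left out belong beside these totals and not beside 8.65%. The number past the thresholds stayed between 272 and 335 when each library was left out.

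**Figure D1:**
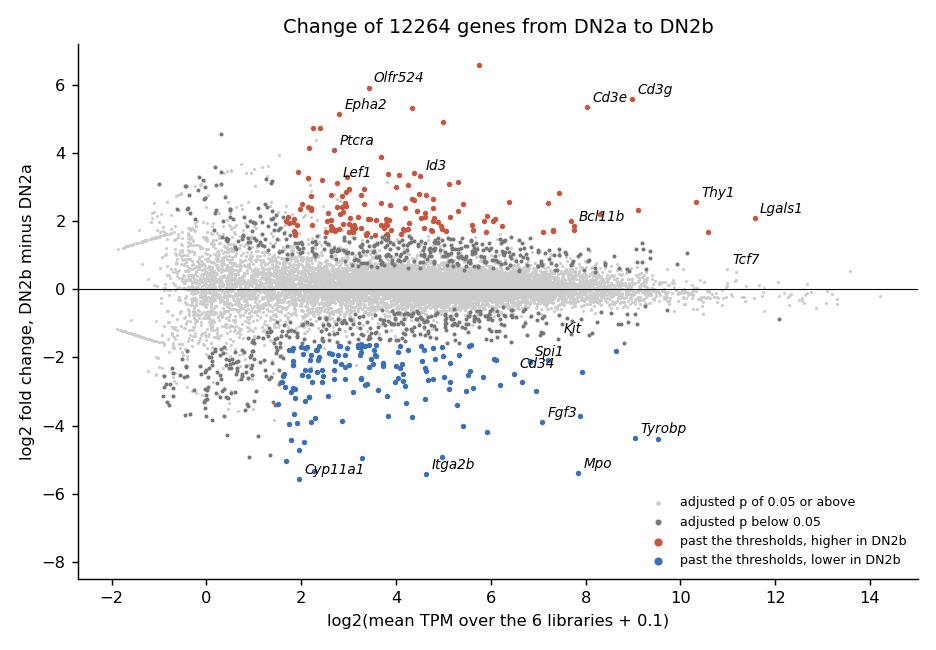
Change of every tested gene from DN2a to DN2b (vertical axis, log2 fold change) against its mean level (horizontal axis, log2 of TPM). Red points are the 142 genes past the thresholds that were higher in DN2b samples, blue points the 150 that were lower, dark grey points other called genes and light grey points the rest, and *Cd3g* and *Cd3e* are labelled among the red points and *Mpo* and *Itga2b* among the blue.

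The labels of the samples were checked with *Kit* and *Bcl11b*. *Kit* was at 216, 252 and 283 TPM in DN2a replicates 1, 1b and 2, and at 99.0, 83.7 and 91.3 TPM in DN2b replicates 1, 2 and 2b. All DN2b samples were therefore lower, with a fold change of 2.73 in the direction of the gate. *Il2ra* ranged from 528 to 738 TPM in DN2a and from 484 to 664 TPM in DN2b samples, and the stages overlapped. *Cd44*, which was part of both gates, was at 37.5 to 44.7 TPM in DN2a and 13.7 to 17.9 TPM in DN2b samples. *Bcl11b* was at 96.8, 54.8 and 139 TPM in DN2a replicates 1, 1b and 2, and at 439, 292 and 267 TPM in DN2b replicates 1, 2 and 2b. Every DN2b sample lay above every DN2a sample, with a log2 fold change of 1.84 (SE 0.35, limma adjusted p = 0.0169). The adjusted p of *Bcl11b* rose to 0.069 without DN2a replicate 1 and to 0.0639 without DN2b replicate 2, with the log2 fold change at 1.89 and 1.92. *Bcl11b* was at 2.23 to 3.44 TPM in DN1 and at 457 and 511 TPM in DN3a samples, so that both DN2 stages lay between these levels. *Xist* reached at most 0.00793 TPM in the 6 DN2 samples while the Y-linked genes *Kdm5d* and *Eif2s3y* were at 10.2 to 18.4 TPM, and neither differed between both stages.

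**Figure D2:**
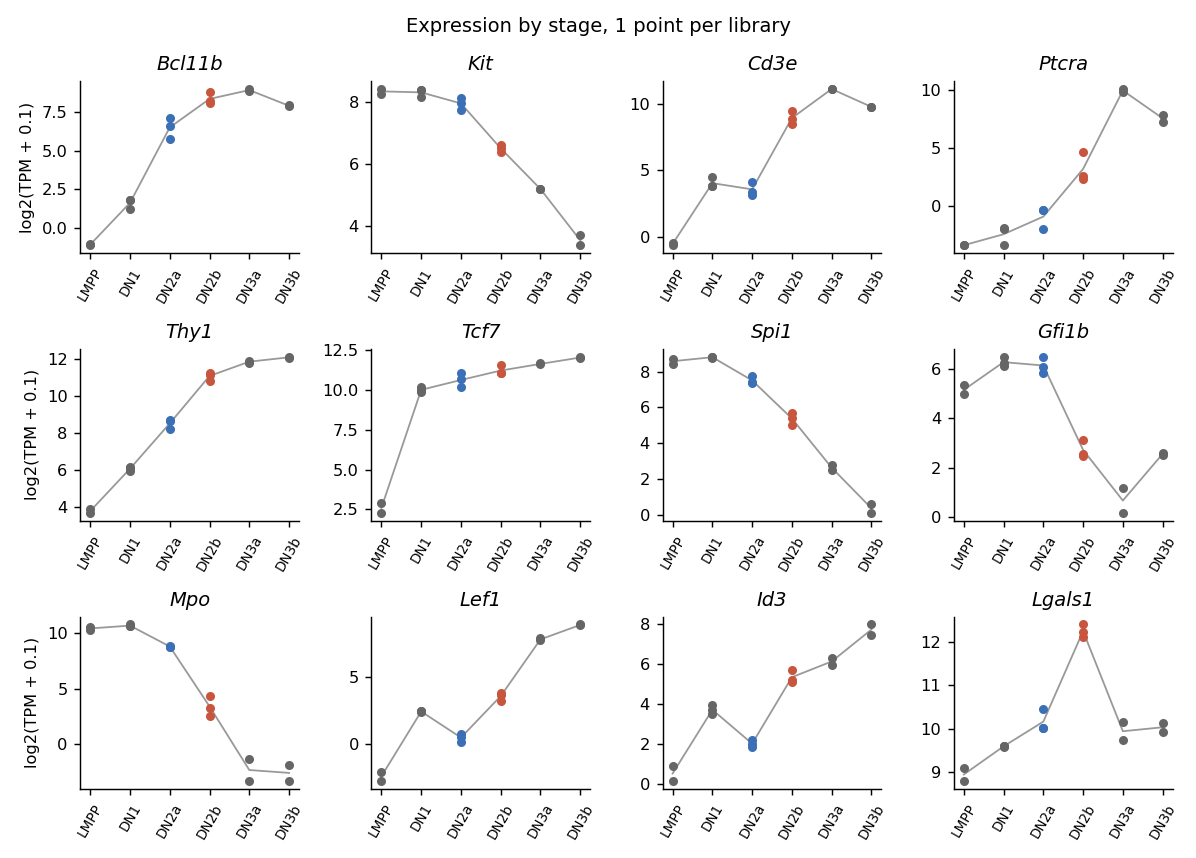
Expression of 12 genes in the 15 wild-type libraries (vertical axis, log2(TPM + 0.1), with a scale of its own in each panel) by stage from LMPP to DN3b (horizontal axis), where each point is 1 library, DN2a is blue, DN2b is red and the line joins the means. *Kit*, *Spi1* and *Mpo* fell from DN2a to DN2b, *Cd3e*, *Ptcra*, *Thy1*, *Lef1* and *Id3* rose, and *Lgals1* was highest in DN2b.

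The CD3 genes were among the genes with the largest rises. CD3γ, CD3δ, CD3ε and CD3ζ are the chains that carry the signal of the T cell receptor into the cell. *Cd3g* was at 28.4, 15.6 and 18.1 TPM in DN2a replicates 1, 1b and 2, and at 770.5, 803 and 1411 TPM in DN2b replicates 1, 2 and 2b (log2 fold change 5.57, SE 0.30, adjusted p = 0.000136 from limma). *Cd3e* was at 17.9, 9.04 and 10.4 TPM in DN2a and at 463, 350 and 714 TPM in DN2b samples (log2 fold change 5.34, SE 0.33, adjusted p = 0.000221). *Cd3d* was at 1.57, 2.21 and 1.18 TPM in DN2a and at 30.0, 38.1 and 118 TPM in DN2b samples (log2 fold change 4.92, SE 0.50, adjusted p = 0.00132). In all 3 genes the stages were far apart and DN2b replicate 2b was the highest library. *Cd247*, which encodes CD3ζ, was already expressed at 38.5 to 49.8 TPM in DN2a samples and rose less, to 124 to 130 TPM (log2 fold change 1.53, adjusted p = 0.00114). *Ptcra*, the gene of the pre-T cell receptor α chain, was at 0.691, 0.713 and 0.156 TPM in DN2a samples and at 4.87, 6.19 and 25.5 TPM in DN2b samples (log2 fold change 4.08, SE 0.70, adjusted p = 0.0119). Here, too, DN2b replicate 2b was the highest, and without it the log2 fold change was 3.35 for *Ptcra* and 4.32 for *Cd3d*, with adjusted p of 0.0221 and 0.00126. In DN3a samples *Ptcra* was at 890 and 1081 TPM, so the DN2b level was low compared with the next stage. All 5 genes of this list were called (100%, against 8.65% of all genes).

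*Cd3g*, *Cd3d*, *Cd3e* and *Mpzl2* lie next to each other on chromosome 9, with 84.5 kb from the first to the last base of the group in the GRCm38.p6 assembly. *Mpzl2* encodes a cell adhesion protein of epithelia and thymocytes and rose from 2.30, 1.03 and 1.54 TPM in DN2a samples to 22.3, 24.9 and 24.6 TPM in DN2b samples (log2 fold change 3.87, SE 0.28, limma adjusted p = 0.000371). The tested genes on either side, *Ube4a* and *Mpzl3*, changed by 0.36 and 0.53 on the log2 scale and were not called (limma adjusted p = 0.295 and 0.582). *Scn4b*, the next gene after *Mpzl3*, rose by 2.38 on the log2 scale (adjusted p = 0.0225 from limma) but did not reach the thresholds. *Cd3g* and *Cd3d* are transcribed away from each other, with 1338 bases between their starts. Their promoter windows, from 250 bases before to 50 bases after the start, are shown because both genes rose together, and those of *Mpo* and *Bcl11b* for comparison with a gene that fell and with the gene of the commitment factor. The sequences are those of RefSeq for GRCm38.p6, a later assembly than the mm9 assembly of the deposited tables. They are written 5′ to 3′ along the transcribed strand, with matches to CTTTGA, a core of TCF and LEF sites, and to GAGGAAGT, a form of the PU.1 site, in capitals on either strand.
Cd3g: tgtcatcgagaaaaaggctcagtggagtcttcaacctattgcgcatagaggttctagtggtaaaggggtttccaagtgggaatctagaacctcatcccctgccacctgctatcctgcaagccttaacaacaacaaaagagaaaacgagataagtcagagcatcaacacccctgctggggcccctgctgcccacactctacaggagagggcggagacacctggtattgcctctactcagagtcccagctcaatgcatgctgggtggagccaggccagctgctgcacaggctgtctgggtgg
Cd3d: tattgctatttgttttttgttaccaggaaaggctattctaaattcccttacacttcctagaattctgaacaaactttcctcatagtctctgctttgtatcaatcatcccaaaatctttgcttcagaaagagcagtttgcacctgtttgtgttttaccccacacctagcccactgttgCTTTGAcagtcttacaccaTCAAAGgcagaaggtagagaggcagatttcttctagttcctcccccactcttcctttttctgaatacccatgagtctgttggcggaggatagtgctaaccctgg
Bcl11b: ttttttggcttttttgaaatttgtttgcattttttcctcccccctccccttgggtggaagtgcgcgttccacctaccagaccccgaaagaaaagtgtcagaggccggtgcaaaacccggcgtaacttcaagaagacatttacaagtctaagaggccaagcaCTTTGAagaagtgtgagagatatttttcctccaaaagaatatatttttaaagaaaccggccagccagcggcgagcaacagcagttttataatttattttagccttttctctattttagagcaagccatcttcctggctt
Mpo: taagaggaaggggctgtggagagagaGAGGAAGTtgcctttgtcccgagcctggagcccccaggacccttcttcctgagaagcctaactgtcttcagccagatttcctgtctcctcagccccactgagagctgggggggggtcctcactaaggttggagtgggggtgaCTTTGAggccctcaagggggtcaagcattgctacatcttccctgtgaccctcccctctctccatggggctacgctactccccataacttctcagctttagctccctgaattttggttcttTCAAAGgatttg
These windows are chr9:44980382-44980681 (minus strand) for *Cd3g*, chr9:44981536-44981835 (plus strand) for *Cd3d*, chr12:108003365-108003664 (minus strand) for *Bcl11b* and chr11:87793534-87793833 (plus strand) for *Mpo*. The *Cd3d* window holds 2 matches to CTTTGA, the *Bcl11b* window 1 and the *Mpo* window 2, and the *Cd3g* window 0. GAGGAAGT occurs once in the *Mpo* window. The RUNX core TGTGGT has no match in any of the 4 windows. The windows of *Cd3e*, *Ptcra*, *Itga2b* and *Gfi1b*, which were also searched, hold 0 matches to any of these motifs. Among all 32851 windows of RefSeq promoters of the same length, 16.0% hold CTTTGA, 3.2% hold GAGGAAGT and 16.8% hold TGTGGT on either strand, so that these matches are a description of the letters only.

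Among genes that carry the signal of the T cell receptor, 11 of 28 tested genes were called and all 11 were higher in DN2b samples (39.3%, against 8.65% of all genes), and the median log2 fold change was 0.74 over the list and 0.09 over all genes. *Zap70*, the kinase that binds phosphorylated CD3 chains, was at 8.21, 6.77 and 10.1 TPM in DN2a and 42.9, 31.6 and 45.6 TPM in DN2b samples (log2 fold change 2.25, limma adjusted p = 0.00113). *Rasgrp1*, an activator of Ras, was at 7.47 to 18.8 TPM in DN2a and at 54.4 to 94.5 TPM in DN2b samples (log2 fold change 2.49, adjusted p = 0.00502 from limma). The adaptor gene *Sh2d2a* rose by 2.13 and *Themis* by 2.08 on the log2 scale. *Lat*, the membrane adaptor, was abundant in both stages and rose from 302 to 348 TPM in DN2a to 823 to 877 TPM in DN2b samples (log2 fold change 1.35). *Cd28*, the costimulatory receptor, was called at a low level of 0.404 to 0.954 TPM in DN2a and 2.28 to 3.13 TPM in DN2b samples, with adjusted p between 0.0706 and 0.0802 by limma without DN2a replicate 1, DN2b replicate 1, DN2b replicate 2 or DN2b replicate 2b. The list had 7 called genes without DN2a replicate 1 or DN2b replicate 2, where *Cd28*, *Grap2*, *Plcg1* and *Trat1* lost their calls. By contrast, *Lck*, the kinase upstream of Zap70, was at 789 to 968 TPM in DN2a and 1168 to 1468 TPM in DN2b samples, a log2 fold change of 0.58 that was not called (limma adjusted p = 0.0540). *Fyn*, *Lcp2* and *Cd5* were expressed in both stages with log2 fold changes of 0.09, 0.10 and -0.35 and were not called.

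*Thy1*, a surface glycoprotein of T cells that was not part of the gate, was at 413, 299 and 403 TPM in DN2a replicates 1, 1b and 2, and at 2272, 1824 and 2458 TPM in DN2b replicates 1, 2 and 2b. These values were far apart (log2 fold change 2.56, SE 0.18, limma adjusted p = 0.000341). Of the genes for homing and adhesion, 8 of 18 were called (44.4%, against 8.65% of all genes), 5 of them higher and 3 lower in DN2b samples. The 3 lower genes include *Cd44*, a gene of the sort and so no finding. Without DN2a replicate 1, DN2a replicate 1b or DN2b replicate 2b, 5 genes were called, *Cd44* among them. *Ccr9*, the receptor for the thymic chemokine CCL25, rose from 0.749 to 1.11 TPM in DN2a to 6.98 to 14.4 TPM in DN2b samples (log2 fold change 3.19). *Cd34*, a surface protein of stem and progenitor cells, fell from 134 to 174 TPM to 24.9 to 29.2 TPM (log2 fold change -2.48, limma adjusted p = 0.000236). The integrin gene *Itgb7* fell by 1.07 on the log2 scale, while *Cxcr4*, the receptor for CXCL12, was at 543 to 617 TPM in DN2a and 557 to 709 TPM in DN2b samples and was not called.

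**Figure D3:**
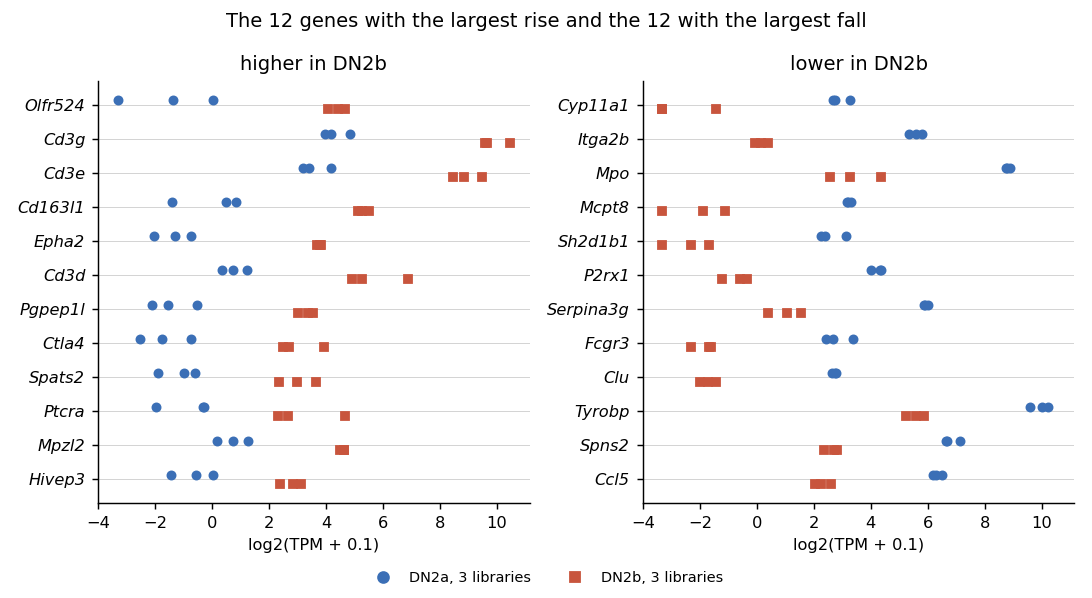
Levels in each library (horizontal axis, log2(TPM + 0.1)) of the 12 genes with the largest rise and the 12 with the largest fall among genes past the thresholds, where blue circles are the 3 DN2a and red squares the 3 DN2b libraries. The stages do not overlap for any of the 24 genes, which follows from the rule by which they were chosen.

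Besides the CD3 and *Ptcra* genes and *Mpzl2*, the 12 genes with the largest rise comprised *Olfr524*, *Cd163l1*, *Epha2*, *Pgpep1l*, *Ctla4*, *Spats2* and *Hivep3*. *Cd163l1*, which encodes a scavenger receptor known from γδ T cells, was at 1.31, 0.279 and 1.68 TPM in DN2a and 45.6, 38.2 and 34.3 TPM in DN2b samples (log2 fold change 5.31, SE 0.54, limma adjusted p = 0.00131). *Olfr524* was recorded at 0.926, 0.288 and 0 TPM in DN2a and 24.9, 16.5 and 21.0 TPM in DN2b samples (log2 fold change 5.92, SE 0.75). This olfactory receptor gene lies within *Cd163l1* on the opposite strand of GRCm38.p6, and since no strand is stated for the counting of reads, its signal cannot be told apart from that of *Cd163l1*. The next tested gene, *5830411N06Rik*, which also encodes a scavenger receptor, had the largest rise of all and was chosen after its values were seen. *5830411N06Rik* was at 1.5, 0.526 and 1.21 TPM in DN2a and 119, 106 and 94.6 TPM in DN2b samples (log2 fold change 6.6, SE 0.34, adjusted p = 0.000135 from limma). All 3 genes together span 103.5 kb of chromosome 7.

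*Epha2*, a receptor tyrosine kinase for ephrins, was at 0.496, 0.140 and 0.301 TPM in DN2a and 13.7, 12.7 and 14.0 TPM in DN2b samples (log2 fold change 5.14, SE 0.36, adjusted p = 0.000336 from limma). *Ctla4*, the inhibitory receptor that competes with CD28, was at 0.0726 to 0.498 TPM in DN2a and at 5.53 to 15.1 TPM in DN2b samples, with DN2b replicate 2b the highest (log2 fold change 4.72). *Hivep3*, which encodes a zinc finger protein, rose by 3.45, *Spats2* by 4.16 and *Pgpep1l* by 4.72 on the log2 scale. The last 3 genes were below 1 TPM in every DN2a sample and between 5.00 and 12.3 TPM in the DN2b samples.

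**Figure D4:**
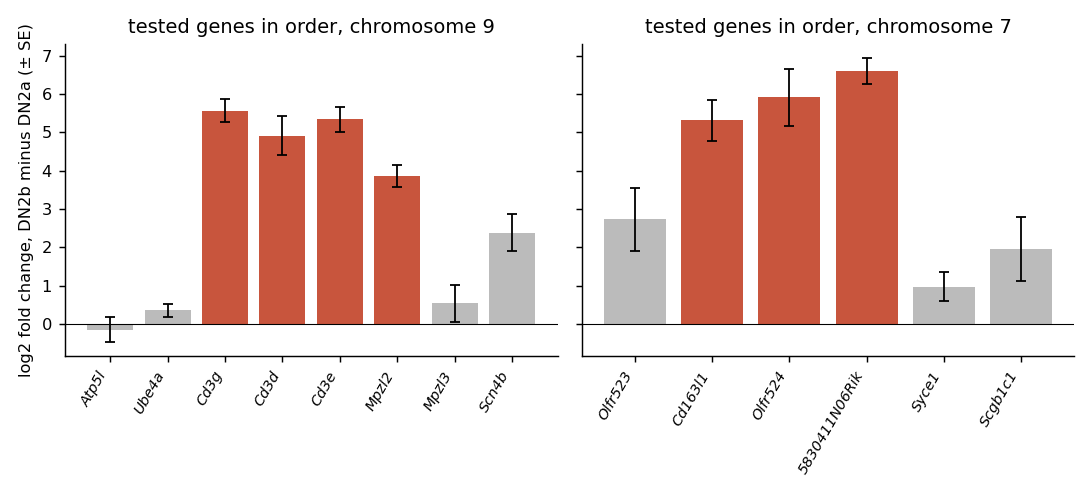
Log2 fold changes with standard errors (vertical axis) of neighbouring tested genes in their order along chromosome 9 and chromosome 7 (horizontal axis), where red bars are genes past the thresholds and grey bars other genes. *Cd3g*, *Cd3d*, *Cd3e* and *Mpzl2* on one chromosome, and *Cd163l1*, *Olfr524* and *5830411N06Rik* on the other, stand above their neighbours.

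The T-lineage transcription factors had 7 called genes among 21 tested (33.3%, against 8.65% of all genes), all of them higher in DN2b samples, and the median log2 fold change of the list was 0.70. These 7 include *Bcl11b*, with which the labels were checked. The count was 4 without DN2a replicate 1 or DN2b replicate 2 and 12 without DN2a replicate 2. *Lef1*, which binds the same sites as the TCF1 protein of *Tcf7*, was at 1.54, 0.995 and 1.33 TPM in DN2a and 14.1, 9.26 and 12.7 TPM in DN2b samples (log2 fold change 3.12, SE 0.26, limma adjusted p = 0.000610). *Ets1* was at 71.8, 55.1 and 96.2 TPM in DN2a and 297, 200 and 233 TPM in DN2b samples (log2 fold change 1.73, SE 0.24, limma adjusted p = 0.00467). *Spib*, an Ets family gene related to *Spi1*, was at 2.61 to 4.28 TPM in DN2a and 10.6 to 15.9 TPM in DN2b samples (log2 fold change 1.90). *Tox2* was at 1.59 to 3.04 TPM in DN2a and 7.26 to 12.4 TPM in DN2b samples (log2 fold change 2.03). *Gfi1* and *Sox13* were also called, at log2 fold changes of 1.34 and 1.08, but without DN2a replicate 1, DN2b replicate 1 or DN2b replicate 2 the adjusted p lay between 0.0709 and 0.102 for *Gfi1* and between 0.0683 and 0.0902 for *Sox13*. *Tcf7*, an early target of Notch, was among the most abundant of these genes at 1149 to 2112 TPM in DN2a and 2116 to 3001 TPM in DN2b samples. Its log2 fold change of 0.59 (SE 0.24) was not called (limma adjusted p = 0.213). The lowest DN2b value, 2116 TPM, lay just above the highest DN2a value, 2112 TPM. *Gata3* was at 98.5, 73.2 and 139 TPM in DN2a and 254, 175 and 179 TPM in DN2b samples, and missed the threshold (log2 fold change 1.00, SE 0.26, limma adjusted p = 0.0592). *Runx1*, *Runx3* and *Tox* had log2 fold changes of 0.71, 0.19 and -0.05 and were not called.

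E proteins are the basic helix-loop-helix factors that drive expression of T cell receptor and recombination genes, and Id proteins bind and inactivate them. *Id3* was at 4.48, 3.48 and 3.96 TPM in DN2a and 34.8, 37.2 and 52.2 TPM in DN2b samples (log2 fold change 3.33, SE 0.21, limma adjusted p = 0.000221). *Id2*, which promotes innate lymphoid fates, was at a mean of 13.3 TPM in DN2a and 14.0 TPM in DN2b samples and was not called. *Tcf12*, the gene of the E protein HEB, rose by 0.98 on the log2 scale and was called, but its adjusted p lay between 0.0679 and 0.157 when any library other than DN2a replicate 2 was left out. *Tcf3*, the gene of E2A, was not called at 0.39. In all, 2 of 6 tested genes of this list were called (33.3%, against 8.65% of all genes), and *Id3* alone when *Tcf12* lost its call.

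Among Notch receptors and their regulators, 1 of 17 tested genes was called (5.88%, against 8.65% of all genes), and 2 without DN2a replicate 2. The called gene was *Notch3*, which rose from 31.7, 22.3 and 32.5 TPM in DN2a to 82.0, 68.7 and 69.8 TPM in DN2b samples (log2 fold change 1.36, SE 0.19, limma adjusted p = 0.00476). *Notch1* was at 260 to 472 TPM in DN2a and 324 to 482 TPM in DN2b samples, and the stages overlapped. Of the Notch target genes, 3 of 9 were called (33.3%, against 8.65% of all genes), and the median log2 fold change of the list was -0.09. Of these calls, *Ptcra* and *Notch3* are also counted in the lists of CD3 genes and of Notch receptors. *Hes1* was at 167 to 186 TPM in DN2a and 186 to 191 TPM in DN2b samples, with a log2 fold change of 0.08. *Dtx1* went the other way from *Ptcra* and *Notch3*, from 16.5, 12.6 and 17.1 TPM in DN2a to 5.39, 5.46 and 6.65 TPM in DN2b samples (log2 fold change -1.38, limma adjusted p = 0.00475). *Myc*, *Nrarp* and *Hes5* were not called.

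Of the 12 genes of V(D)J recombination, the joining of receptor gene segments, 4 were called (33.3%, against 8.65% of all genes), with 3 higher and 1 lower. *Dntt*, which encodes the terminal transferase that adds nucleotides at the joints, was at 819, 701 and 660 TPM in DN2a and 2277, 1987 and 2787 TPM in DN2b samples (log2 fold change 1.69, SE 0.16, limma adjusted p = 0.00111). *Rag1* was at 5.32, 3.91 and 6.59 TPM in DN2a and 24.1, 16.4 and 26.3 TPM in DN2b samples (log2 fold change 2.06, limma adjusted p = 0.00318). *Rag2*, the partner of *Rag1* in the recombinase, was at 6.03 to 7.69 TPM in DN2a and at a mean of 8.21 TPM in DN2b samples and was not called. DN3a samples had 622 and 972 TPM of *Rag1*, so the DN2b level was a small part of that of the next stage. The DNA ligase gene *Lig4* rose by 1.73 and the polymerase gene *Poll* fell by 1.67 on the log2 scale. At the T cell receptor γ locus, the segments *Trgv2* and *Trgj4* rose from 5.75 to 11.2 TPM and 4.6 to 14.5 TPM in DN2a to 53.6 to 106 TPM and 40.0 to 55.9 TPM in DN2b samples. These segments were chosen after their values were seen, and related segments can share reads, so their levels are uncertain.

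The transcription factors of stem and progenitor cells moved in the opposite direction to those of the T lineage. Among 21 tested genes, 14 were called (66.7%, against 8.65% of all genes) and all 14 were lower in DN2b samples, and the median log2 fold change of the list was -1.42. *Spi1*, which encodes the myeloid and B cell factor PU.1, was at 168, 164 and 219 TPM in DN2a and 52.0, 32.1 and 42.8 TPM in DN2b samples (log2 fold change -2.13, SE 0.22, limma adjusted p = 0.00131). *Gfi1b*, a repressor of erythroid and megakaryocyte cells, was at 67.5, 56.1 and 89.4 TPM in DN2a and 8.68, 5.42 and 5.73 TPM in DN2b samples (log2 fold change -3.41, SE 0.25, limma adjusted p = 0.000366). The zinc finger gene *Zbtb16*, which encodes the innate lymphoid factor PLZF, fell by 2.64, and *Mycn* by 2.11 on the log2 scale. The stem cell factors *Lmo2*, *Tal1* and *Lyl1*, which act in a common complex, fell by 2.22, 1.93 and 1.30. *Lyl1* started from 236 to 355 TPM in DN2a and was still at 82.9 to 147 TPM in DN2b samples, and its adjusted p was 0.083 without DN2a replicate 1 and 0.0613 without DN2b replicate 2. *Bcl11a*, the relative of *Bcl11b*, was at 34.7 to 52.7 TPM in DN2a and 12.2 to 13.4 TPM in DN2b samples, opposite to *Bcl11b* (log2 fold change -1.72, limma adjusted p = 0.00177). *Mef2c*, *Meis1*, *Hoxa9*, *Hhex*, *Irf8* and *Nfe2* were called as well, of which *Meis1* was not called without DN2a replicate 1 (adjusted p = 0.0594), *Nfe2* not without DN2a replicates 1 or 1b or DN2b replicates 2 or 2b (0.056 to 0.132) and *Hoxa9* not when any library other than DN2b replicate 2 was left out (0.0742 to 0.134). *Erg* was at 62.1 to 115 TPM in DN2a and 66.3 to 114 TPM in DN2b samples and was not called (log2 fold change 0.08).

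The 12 genes with the largest fall included genes known from granulocytes, basophils and natural killer cells. *Mpo*, the myeloperoxidase of neutrophil granules, was at 426, 442 and 469 TPM in DN2a replicates 1, 1b and 2, and at 9.46, 5.79 and 20.5 TPM in DN2b replicates 1, 2 and 2b (log2 fold change -5.41, SE 0.40, limma adjusted p = 0.000371). In DN1 samples *Mpo* was at 1567 to 1769 TPM. *Tyrobp*, the signalling adaptor of myeloid and natural killer receptors, was at 1029, 1203 and 763 TPM in DN2a and 37.4, 48.5 and 58.0 TPM in DN2b samples (log2 fold change -4.37, SE 0.23, adjusted p = 0.000135 from limma). *Itga2b*, the integrin of platelets and early progenitors, was at 40.6, 48.2 and 56.1 TPM in DN2a and 1.21, 1.01 and 0.860 TPM in DN2b samples (log2 fold change -5.42, SE 0.21, limma adjusted p = 6.07e-05). The basophil protease gene *Mcpt8* was at 8.84 to 9.91 TPM in DN2a and at most 0.364 TPM in DN2b samples. *Mcpt8*, *Ctsg* and *Gzmb*, which encode granule proteases, are neighbours on chromosome 14 and all 3 were past the thresholds, with *Ctsg* at 35.8 to 39.5 TPM in DN2a and 2.08 to 3.65 TPM in DN2b samples.

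The other genes of this group were likewise low in every DN2b sample. *Cyp11a1*, the enzyme of the first step of steroid synthesis, was at 6.53, 9.65 and 6.27 TPM in DN2a and at 0.275, 0 and 0 TPM in DN2b samples. Its fitted log2 fold change of -5.58 depends on the constant added to TPM and ranged from -7.91 to -2.95 over the alternatives. *Fcgr3*, an Fc receptor, fell by 4.71, the natural killer adaptor gene *Sh2d1b1* by 5.03 and the ATP receptor gene *P2rx1* by 4.95 on the log2 scale. *Serpina3g* went from 57.7 to 63.9 TPM to 1.21 to 2.81 TPM, and *Spns2*, a transporter of sphingosine-1-phosphate, from 100 to 141 TPM to 5.05 to 6.92 TPM. The chemokine gene *Ccl5* was at 72.8 to 89.8 TPM in DN2a and at 4.05 to 5.95 TPM in DN2b samples, and *Clu*, which encodes the secreted chaperone clusterin, was at 6.07 to 6.70 TPM and 0.150 to 0.269 TPM.

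Whether other cells were present in the sorted samples was looked at with their markers. Of the granulocyte and macrophage markers, 5 of 7 tested genes were called and lower in DN2b samples (71.4%, against 8.65% of all genes), and the summed level of the list was 535 to 554 TPM in DN2a and 54.0 to 72.7 TPM in DN2b samples. The count was 4 without DN2a replicates 1 or 1b or DN2b replicates 1 or 2, where *Prtn3* lost its call (adjusted p 0.0685 to 0.084 by limma). The markers of mature neutrophils *S100a8* and *Ngp* were at 0 in all 6 libraries, *S100a9* had a mean of 0.0728 TPM in DN2a samples and *Elane* one of 0.138 TPM. *Lyz2* was at 35.4 to 57.8 TPM in DN2a and 38.2 to 57.9 TPM in DN2b samples and was not called. Among dendritic cell markers, 3 of 4 tested genes were called and lower (75.0%, against 8.65% of all genes). The count was 2 without DN2a replicates 1 or 1b or DN2b replicates 1 or 2, where *H2-Aa* lost its call (adjusted p 0.0588 to 0.117 by limma). The summed level of the list was 52.6 to 64.3 TPM in DN2a and 15.5 to 18.5 TPM in DN2b samples, whereas *Siglech*, *Xcr1* and *Batf3* had means of at most 0.152 TPM. The erythroid and platelet markers summed to 43.9 to 59.4 TPM in DN2a samples, most of it *Itga2b*, and to 6.28 to 8.77 TPM in DN2b samples, most of it *Gata1*, with *Hbb-b1* at 0. *Gata1* rose from 0.626 to 1.71 TPM to 3.38 to 6.52 TPM (log2 fold change 1.95, limma adjusted p = 0.0312) and lost its call under 6 of 20 alternatives. Among the natural killer markers, *Ncr1* was at 0 in all 6 libraries and *Klrb1c* and *Eomes* had means of at most 0.0450 TPM, while *Nkg7* was at 605 to 870 TPM without a call. *Gzma* alone of these rose, from 16.3 to 32.4 TPM to 87.3 to 226 TPM (log2 fold change 2.57, limma adjusted p = 0.00620). The B lineage markers summed to 76.4 to 106 TPM and 89.4 to 112 TPM, of which *Cd79b* made up most. Among stroma markers, *Epcam* and *Cdh5* were called and higher in DN2b samples, *Cdh5* with an adjusted p of 0.0632 to 0.106 without DN2a replicate 1, DN2b replicate 1 or DN2b replicate 2b, while *Foxn1* was at 0 and the keratin genes *Krt5* and *Krt8* had means of at most 0.153 TPM. *Cd4*, *Cd8a* and *Cd8b1* of double positive thymocytes had means of at most 0.735 TPM. In bulk samples, fewer cells that express a gene and less of its mRNA per cell cannot be told apart.

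Of 28 tested receptors for growth factors and cytokines, 12 were called (42.9%, against 8.65% of all genes), 3 of them higher and 9 lower, among the latter *Kit*. The count was 8 when any library other than DN2a replicate 2 was left out, and *Il4ra*, *Il10rb* and *Il27ra* were among the lost calls, with adjusted p of 0.186, 0.163 and 0.174 from limma without DN2a replicate 1. Both chains of the interferon-γ receptor rose. *Ifngr1* was at 126, 103 and 106 TPM in DN2a and 508, 472 and 582 TPM in DN2b samples (log2 fold change 2.22, SE 0.15, limma adjusted p = 0.000292), and *Ifngr2* at 6.49 to 9.03 TPM and 22.2 to 31.0 TPM (log2 fold change 1.76). The myeloid receptors *Csf1r*, *Csf2rb* and *Csf3r* fell from levels of 1.59 to 3.23 TPM in DN2a to at most 0.697 TPM in DN2b samples. *Il1r1* and *Il6ra* fell by 2.91 and 2.24 on the log2 scale, and *Il6ra* was not called when any of the 6 libraries was left out (adjusted p 0.0501 to 0.131 by limma). *Il7r*, the receptor for the survival factor IL-7, was at 51.9 to 53.5 TPM in DN2a and 59.0 to 64.4 TPM in DN2b samples and was not called (limma adjusted p = 0.366).

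The study sequenced these stages for genes that Pax5 represses or activates in pro-B cells. Among 7 such repressed genes tested, with *Il18r1* counted beside its partner *Il18rap*, 3 were lower in DN2b samples (42.9%, against 8.65% of all genes called), 0 were higher and 4 were not called. *Ffar2*, a receptor for short-chain fatty acids, was at 31.2, 33.5 and 36.4 TPM in DN2a and 3.60, 2.70 and 3.45 TPM in DN2b samples (log2 fold change -3.34, SE 0.18, adjusted p = 0.000135 from limma). *Il18rap*, a chain of the IL-18 receptor, fell from 6.24 to 8.33 TPM to 1.72 to 1.95 TPM, and *Ociad2* from 13.6 to 21.4 TPM to 8.02 to 9.96 TPM, although *Ociad2* was called only when all libraries were used or DN2a replicate 2 was left out (adjusted p 0.0729 to 0.139 otherwise). *Gpr25*, a G protein-coupled receptor, was at 229 to 352 TPM in DN2a and 250 to 337 TPM in DN2b samples, with a log2 fold change of 0.02. *Flt3*, the cytokine receptor of early progenitors, had means of 3.76 and 1.23 TPM and was not called, nor were *Il31ra* and *Il18r1*. The activated genes *Asb2*, *Tnfrsf19* and *Steap4* had means of at most 0.157 TPM in both stages and were below the level for testing.

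**Figure D5:**
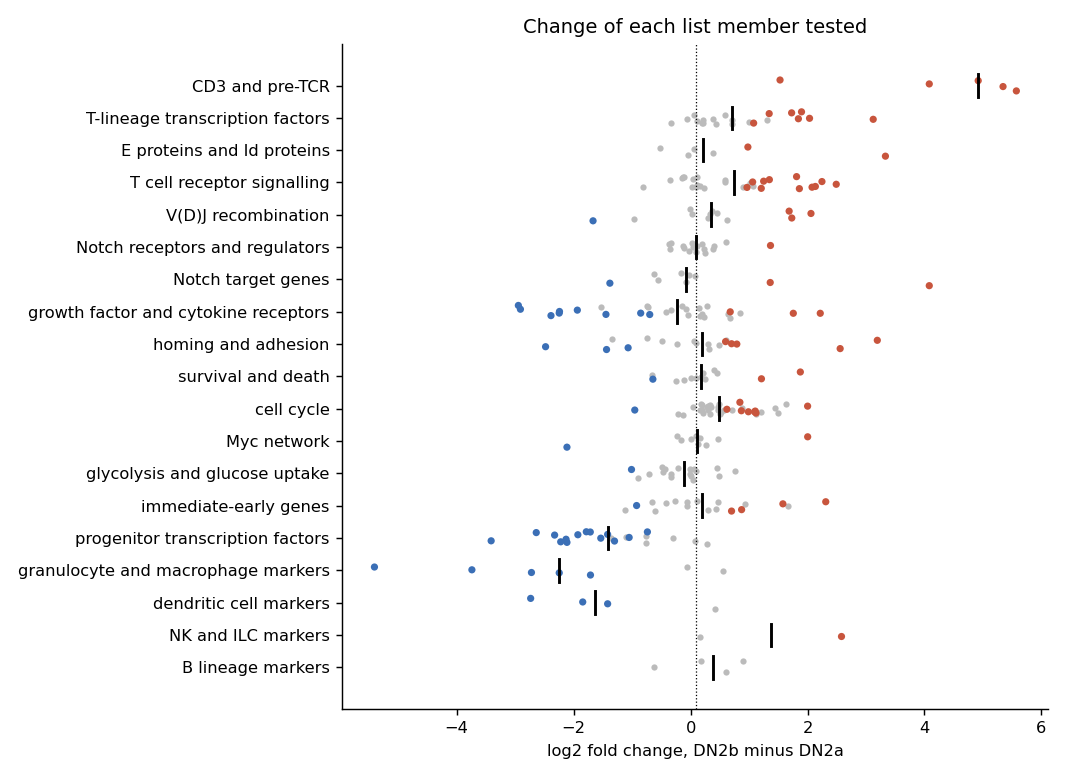
Log2 fold changes from DN2a to DN2b (horizontal axis) of the tested members of 19 gene lists (vertical axis), where red points are called members that were higher, blue points called members that were lower and grey points members that were not called. Black bars are the medians of the lists and the dotted line is the median of all genes at 0.09, and the CD3 list has the highest median at 4.92 and the granulocyte and macrophage list the lowest at -2.25.

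Of the cell cycle genes, 9 of 37 tested were called (24.3%, against 8.65% of all genes), with 8 higher and 1 lower, and the list had a median log2 fold change of 0.48. This count depended on single libraries, since *Ccnb2* alone was called without DN2a replicate 1, between 2 and 3 genes without DN2a replicate 1b or any of the DN2b replicates, and 16 without DN2a replicate 2. Over all genes, 499 of 12225 were called without DN2a replicate 1 and 1402 of 12193 without DN2a replicate 2. Without DN2a replicate 1 the list thus had no larger share of calls than all genes. *Ccnb2*, a cyclin of mitosis, was at 108 to 127 TPM in DN2a and 239 to 284 TPM in DN2b samples (log2 fold change 1.11, limma adjusted p = 0.00332) and *Cdc20*, which activates the anaphase-promoting complex, at 68.1 to 101 TPM and 138 to 207 TPM. The adjusted p of *Cdc20* lay between 0.0611 and 0.103 without DN2a replicates 1 or 1b or DN2b replicates 1 or 2b. *E2f2* rose by 2.00 on the log2 scale, with an adjusted p of 0.0603 without DN2a replicate 1. The proliferation marker *Mki67* was at 24.1, 17.8 and 73.4 TPM in DN2a replicates 1, 1b and 2, and at 177, 85.8 and 62.4 TPM in DN2b replicates 1, 2 and 2b. These stages overlapped, and the change was not called (limma adjusted p = 0.142). In pairs with consecutive experiment numbers, *Mki67* went from 24.1 to 85.8, 17.8 to 62.4 and 73.4 to 177 TPM, which no fit tested. The replication genes *Mcm2* to *Mcm7* had log2 fold changes between 0.18 and 0.48 without a call. *Ccnd1* fell by 0.95 but was not called when any of the 6 libraries was left out (adjusted p 0.0887 to 0.141).

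Among the Myc network, *Mxd3* rose from 20.1 to 25.5 TPM to 90.7 to 94.9 TPM (log2 fold change 2.00, limma adjusted p = 0.000372) and *Mycn* fell, while *Myc* itself was at 237 to 370 TPM in DN2a and 241 to 284 TPM in DN2b samples and was not called. Of genes for survival and death, 3 of 13 were called (23.1%, against 8.65% of all genes). *Bcl2*, which protects from apoptosis, was at 17.2, 15.9 and 30.1 TPM in DN2a and 98.1, 74.1 and 56.7 TPM in DN2b samples (log2 fold change 1.88, SE 0.30, limma adjusted p = 0.00781). *Bid* fell by 0.65, with a call only when all libraries were used or DN2a replicate 2 was left out (adjusted p 0.0892 to 0.106 otherwise). *Bik* was not called when any of the 6 libraries was left out (adjusted p 0.0742 to 0.161), and *Bcl2* was the only call of the list when any library other than DN2a replicate 2 was left out. *Mcl1* had a log2 fold change of 0.10. Of 18 genes of glycolysis, *Aldoa* alone was called (5.56%, against 8.65% of all genes), and 2 genes without DN2a replicate 2, with a fall of *Aldoa* of 1.02 on the log2 scale, and the median of the list was -0.11. Of 18 immediate-early genes, whose mRNA can rise while cells are sorted, 5 were called (27.8%, against 8.65% of all genes), 4 of them higher. *Klf2* alone was called without DN2a replicate 1, and 2 genes without DN2a replicate 1b or any of the DN2b replicates. Over all genes, 499 of 12225 were called without DN2a replicate 1, and 565 to 704 in the other settings named. *Klf2* was at 7.69 to 17.5 TPM in DN2a and 47.2 to 83.1 TPM in DN2b samples and *Jun* at 4.95 to 7.44 TPM and 14.1 to 30.2 TPM. *Jun* was not called without DN2a replicate 1 or 1b (adjusted p = 0.0683 and 0.0573). *Fos* and *Egr1* had means of at most 1.45 TPM in both stages. The part of handling of the cells in these values was not tested.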

How the data were processed

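Wild-type DN2a and DN2b cells were profiled by RNA-seq with reads of 50 nucleotides. Selection of poly(A) RNA is described for pro-B cells, and for these libraries it was not given in the sources used here. The authors deposited TPM computed on mm9, which is handled here as a score because each gene has 2 unlabelled rows. Per the methods, reads of these stages were aligned with TopHat 1.4.1, and genes are those of RefSeq. The mean of both rows was used, and an entry of exactly 1 was read as 0, after which every library sums to 1000000 or 999999. For 3539 genes the name carries a suffix whose meaning is not stated. Depth is not given. Estimated from exon lengths of another annotation, it was 13.2 to 16.3 (in units of 1000000 reads), and 1 read of a 1 kb transcript is worth 0.097 to 0.13 TPM. Low values were whole multiples of a read, within 5%, for 59.2 to 62.9% of those examined, so no count test was run.

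The stages were compared with limma 3.58.1 under R 4.3.3. A linear model was fitted to log2(TPM + 0.1), moderated variances were allowed to depend on the average level, and tests were two-sided with Benjamini-Hochberg adjustment over all 12264 genes. The code was tested on simulated data. A call has an adjusted p under 0.05. Genes were named by rule as the 12 largest rises and 12 largest falls past the thresholds with stages that do not overlap, leaving out genes known by identifier only, together with the genes of the sort, *Bcl11b*, *Thy1* and members of gene lists. Some genes are members of several lists. Genes chosen after their values were seen are named as such. A marker of the gate and some list members are not reported here. Neighbouring steps were fitted in 1 model of 15 libraries. Gene order and promoters are those of RefSeq for GRCm38.p6, on which 11491 tested genes were placed. The members, lists and rules were chosen with earlier results of these data known. Alternatives changed the constant, the filter, the scaling, the spread, the rows or the replicate block, or left out a library.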

Additional observations from a re-analysis of the deposited data

Results flagged for a closer look

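The step before (DN1 to DN2a), the step from DN2a to DN2b and the step after (DN2b to DN3a) were compared in 1 model of the 15 wild-type libraries. Neighbouring steps share the samples of a stage, and a high or low DN2a or DN2b value enters both with opposite sign, so the values of each step are given side by side. Of 83 named genes past the thresholds, 24 changed in opposite directions in neighbouring steps with a difference between the steps that was called. Since these genes were chosen for their change from DN2a to DN2b, which is part of that difference, the values are a description. Among all 13405 genes tested, the same pattern was found in 443 genes for the step before and 386 genes for the step after. *Xist* was at 87.5 and 70.7 TPM in the DN3a samples beside Y-linked *Kdm5d* at 4.43 and 9.99 TPM, but at no more than 0.01 TPM in DN1 and DN2 samples, so the sex of the mice and the stage cannot be told apart in the step to DN3a. The DN3a gate also left out cells with surface CD28 or CD71, which the DN2b gate did not. Estimated depth was 22.8 and 26.7 (in units of 1000000 reads) in DN3a and 13.2 to 16.2 in DN2b samples. These differences cannot be told apart from the stage either.

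Among these, 13 genes were lower in DN2a than in DN1 samples and then rose in DN2b samples. *Cd3d* had means of 8.62 TPM in DN1, 1.65 TPM in DN2a and 62.1 TPM in DN2b samples, and its changes in both steps differed by 7.24 on the log2 scale. *Lef1* followed with 5.24, 1.29 and 12 TPM (difference 5.09), *Id3* with 13.2, 3.97 and 41.4 TPM (difference 5.03) and *Ccr9* with 19.2, 0.935 and 9.77 TPM (difference 7.42). *Epha2* went from 6.63 to 0.313 and 13.5 TPM, with a difference of 9.24. Levels in DN2a were also lower than in both DN1 and DN2b samples for *Zap70* (difference 2.98), *Sh2d2a* (2.80), *Dntt* (2.63), *Ifngr2* (3.99) and *Klf2* (4.35). At the scavenger receptor genes of chromosome 7, the differences were 7.22 for *Cd163l1*, 8.79 for *Olfr524* and 8.0 for *5830411N06Rik*.

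In the other direction, 7 genes were higher in DN2a than in DN1 samples and then fell. *Fgf3*, which encodes a secreted growth factor, had means of 23.3 TPM in DN1, 255 TPM in DN2a and 16.9 TPM in DN2b samples (difference -7.38). *Itga2b* peaked at 48.3 TPM in DN2a from 13.6 TPM in DN1 samples (difference -7.25), and *Zbtb16* at 16.3 TPM from 3.41 TPM (difference -4.82). The differences were -5.52 for *Clu*, -3.75 for *Fcer1g*, which encodes the common Fc receptor γ chain, -3.50 for *Itgax* and -5.64 for *P2rx1*.

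A peak in DN2b samples was found for 5 genes, with the differences in sex, gate and depth to DN3a samples given above. *Lgals1*, which encodes galectin-1, had means of 1161 TPM in DN2a, 4898 TPM in DN2b and 996 TPM in DN3a samples (difference 4.39). *Mxd3* went from 23.2 to 92.7 and 25.9 TPM (difference 3.85), the mitotic gene *Ube2c* had 334 TPM in DN2b and 76.4 TPM in DN3a samples (difference 3.87), *Tox2* from 2.35 to 9.87 and 3.61 TPM (difference 3.48) and *Klf2* from 13.5 to 65.2 and 10.7 TPM (difference 5.15). *P2rx1* was the reverse, with 18.8 TPM in DN2a, 0.529 TPM in DN2b and 12.3 TPM in DN3a samples (difference -9.29).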

How the results depend on the processing

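The number of called genes moved most with the estimate of the spread. It was 1061 in the reported fit, 2210 (1195 higher, 1015 lower) when all 15 libraries shared 1 spread and 4529 (3033 higher, 1496 lower) with library weights, whose estimation stopped before it converged. With the replicate block, 511 genes were called (234 higher, 277 lower), and *Bcl11b* had an adjusted p of 0.0526. *Gfi1*, *Sox13*, *Tcf12* and *Lyl1* also lost their calls there, with limma adjusted p of 0.075, 0.0754, 0.117 and 0.0599. Deviations of samples with the same label number correlated between -0.30 and 0.05 over the 12264 genes, so these numbers do not pair the samples. Pairs with consecutive experiment numbers are DN2a replicates 1, 2 and 1b with DN2b replicates 2, 1 and 2b, in this order. Their deviations correlated at 0.06, 0.29 and 0.32 over these genes. In a smaller set of 9470 genes the values were 0.27, 0.82 and 0.66, against -0.69 to -0.09 for the same label number. No fit paired samples by experiment number, so the effect of such pairing on the calls was not tested. When each library was left out, between 499 and 1402 genes were called, 237 to 900 of them higher and 262 to 502 lower, and 272 to 335 were past the thresholds, with 123 to 194 higher and 137 to 153 lower. The count past the thresholds was 242 to 308 under all other alternatives. The share of called genes that were higher was 50.1%, but 67.0% with library weights and 64.2% without DN2a replicate 2. The median change of all genes of 0.089 fell to 0.003 with quantile normalization. Of 323 named genes, 133 were called, 95 of them under every alternative, and no called change reversed its sign. Chosen after seeing the data, 2 other constants and quantile normalization gave 4015 to 4629 called genes for the step before and 5492 to 5976 for the step after, against 4234 and 5945. Depth limits genes near 0 such as *Cyp11a1*.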

Other observations

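Genes past the thresholds also lay side by side elsewhere in the genome. Of 277 such genes among the 11491 tested genes placed on GRCm38.p6, 37 fell into 15 runs of neighbouring tested genes that moved in the same direction. Some of these genes overlap or can share reads, such as *Olfr524* and *Cd163l1*. Whether the number of runs exceeds that of genes placed at random was not tested. The run with the most genes held *Abcg3*, *Gbp8*, *Gbp9*, *Gbp4* and *Gbp6*, which span 360.8 kb of chromosome 5. The 4 guanylate-binding protein genes are known as targets of interferon-γ. *Gbp4* was at 10.1, 6.95 and 8.83 TPM in DN2a and 51.2, 53.9 and 33.3 TPM in DN2b samples (log2 fold change 2.39, limma adjusted p = 0.00128). *Gbp6* rose by 2.46, *Gbp9* by 2.05 and *Gbp8* by 1.78 on the log2 scale. Such paralogs can share reads, so that the value of each is uncertain. *Id3* and *E2f2* were neighbours on chromosome 4, and *Itgam* and *Itgax*, which encode integrins of myeloid cells, on chromosome 7. These genes and the following ones were chosen after their values were seen.

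Further genes at high levels changed outside the lists. *Ifitm1*, an interferon-induced membrane protein gene, was at 489, 474 and 357 TPM in DN2a and 29.0, 41.2 and 30.4 TPM in DN2b samples (log2 fold change -3.71, adjusted p = 0.000135 from limma). *Rgcc*, a regulator of the cell cycle, was at 136 to 252 TPM in DN2a and 823 to 1090 TPM in DN2b samples, and the adaptor gene *Skap1* at 37.8 to 50.9 TPM and 228 to 276 TPM. *H19*, an imprinted noncoding RNA, rose from 4.62 to 6.94 TPM to 28.0 to 32.7 TPM, and was at a mean of 1371 TPM in DN3a samples. *Sh2d1a*, the adaptor of SLAM receptors, was at 1.78 to 5.44 TPM in DN2a and 17.3 to 65.2 TPM in DN2b samples, highest in DN2b replicate 2b.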
